A study of Mus musculus with 8 samples.

Results

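The 10 genes described here, Fcgrt, Slc16a1, Pdgfra, Acot7, Cxcl12, Igfbp4, Oat, Smad3, Cat and Ndrg2, have been reported as disallowed in beta cells, that is, broadly expressed across tissues but kept low in the insulin-producing cells of the islet. They were listed by name, with no threshold on their values but with earlier results of these data known, and all 10 were found among the 23100 genes of the count table. Poly(A) RNA was sequenced from Min6 cells, an insulin-secreting line from a mouse insulinoma that serves as a model of beta cells. Control cells were transfected with pRK5-NLSeGFP, which encodes a nuclear green fluorescent protein, and the other cells with pRK5-Zac1, which encodes Zac1, the zinc finger transcription factor of the imprinted gene Plagl1. RNA was taken 16 h after lipid-mediated transfection, and each group held 4 libraries, with replicate numbers 1, 2, 3 and 5. All 8 libraries came from the same transfected line, grown in the same medium. Zac1 was expressed from a plasmid in this tumour line, and no sorting of transfected cells is described in the labels, so a level is an average over the whole culture.

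Beta cells couple glucose breakdown to insulin release, and several widely expressed genes are thought to be kept low there because their products would disturb that coupling. The best known case is the pair of Slc16a1, the plasma membrane carrier of lactate and pyruvate, and Ldha, lactate dehydrogenase A. With little of either, circulating pyruvate and lactate do not trigger insulin release, and activating mutations of the human SLC16A1 promoter are linked to insulin release during exercise. The other genes have varied roles, from enzymes of mitochondria and peroxisomes to secreted factors and receptors.

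Depth ranged from 30.5 to 42.4 M (mega) counts per library. Levels are CPM, counts per M counts of a library, with totals scaled by TMM (trimmed mean of M-values), given as mean ± SD over n = 4 libraries. Plagl1 served as the check of the labels, at 77.8 ± 7.38 CPM in the control and 4631 ± 778 CPM in the Zac1 libraries. The 12 beta cell markers used were all present, led by Ins2 at 40170 ± 6669 CPM in the controls, and none of them passed the test described below (0 called by edgeR, DESeq2 and limma-voom, and 0 at an unadjusted p under 0.05). Gcg, the glucagon gene of alpha cells, was also present, at 1432 ± 182 CPM in the controls, as was Krt7, a keratin of duct cells, at 160.0 ± 15.7 CPM. In RNA from whole cultures, fewer cells of a type and less RNA per cell cannot be told apart.

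The promoters of the gene that responded to Zac1, Fcgrt, and of Igfbp4, which did not pass the test and had the most matches among the genes with 1 start in the table, are shown because Zac1 is known to bind GC-rich elements such as the palindrome GGGGCCCC. Sequences are from RefSeq, build GRCm38.p6, 250 bases before to 50 after the start, 5′ to 3′ on the gene's strand, and capitals mark the element's first 5 letters, GGGGC, on either strand. The Fcgrt promoter lies on the minus strand at chr7:45103773-45104072 and that of Igfbp4 on the plus strand at chr11:99040994-99041293.
Fcgrt: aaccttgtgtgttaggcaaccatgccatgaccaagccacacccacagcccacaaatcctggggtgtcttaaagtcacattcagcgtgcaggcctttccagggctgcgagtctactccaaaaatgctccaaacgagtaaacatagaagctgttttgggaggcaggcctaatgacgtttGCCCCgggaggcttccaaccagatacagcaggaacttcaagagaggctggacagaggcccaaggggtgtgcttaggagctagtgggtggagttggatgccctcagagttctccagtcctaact
Igfbp4: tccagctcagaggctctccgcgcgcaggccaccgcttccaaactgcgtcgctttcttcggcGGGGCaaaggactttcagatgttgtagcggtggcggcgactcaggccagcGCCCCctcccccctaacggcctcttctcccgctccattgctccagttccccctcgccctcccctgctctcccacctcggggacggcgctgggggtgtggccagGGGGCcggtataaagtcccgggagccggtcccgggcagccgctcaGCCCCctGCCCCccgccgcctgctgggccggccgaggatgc
Fcgrt had 1 match to GGGGC and Igfbp4 had 5. All 10 genes had at least 1 match, as did 60.8% of all 32851 mouse promoters in the table. The full palindrome GGGGCCCC, searched on both strands and containing GGGGC on each, was found in 1.08% of all promoters and in 0 of the 10 genes, so these windows do not hold those letters.

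The level of the genes in control Min6 cells was set out first, per kb of exon so that genes could be compared. Of the 10 genes, 7 had a control level of at least 1 CPM per kb, and 3 were close to silence. Oat, the mitochondrial ornithine aminotransferase, stood highest at 25.0 ± 2.18 CPM per kb, above 87.5% of the 20731 genes with a length. Slc16a1 followed at 5.54 ± 0.51 CPM per kb. Next came Acot7, a cytosolic thioesterase of long-chain acyl-CoA, at 3.38 ± 0.42, and Igfbp4, a secreted binding protein of insulin-like growth factors, at 2.63 ± 0.40 CPM per kb. Cxcl12, a chemokine, stood at 1.92 ± 0.25, Smad3, a transducer of TGF-beta and activin signals, at 1.58 ± 0.16, and Ndrg2, a member of the N-myc downstream-regulated family, at 1.51 ± 0.65 CPM per kb. The ranges of neighbouring genes over the control libraries overlapped for Acot7 and Igfbp4, for Cxcl12 and Smad3, and for Smad3 and Ndrg2.

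The silent genes lay far below. Fcgrt, the heavy chain of the neonatal Fc receptor, stood at 0.0378 ± 0.0356 CPM per kb, and Cat, the peroxisomal catalase that breaks down hydrogen peroxide, at 0.0344 ± 0.0149. Their ranges overlapped. Pdgfra, the alpha receptor of platelet-derived growth factors, was lowest at 0.00510 ± 0.00309 CPM per kb. For scale, the beta cell transcription factor Mafa stood at 2.56 CPM per kb in the same libraries, within the range of the 7 expressed genes, whereas Pdx1 stood at 48.8 CPM per kb.

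**Figure D1:**
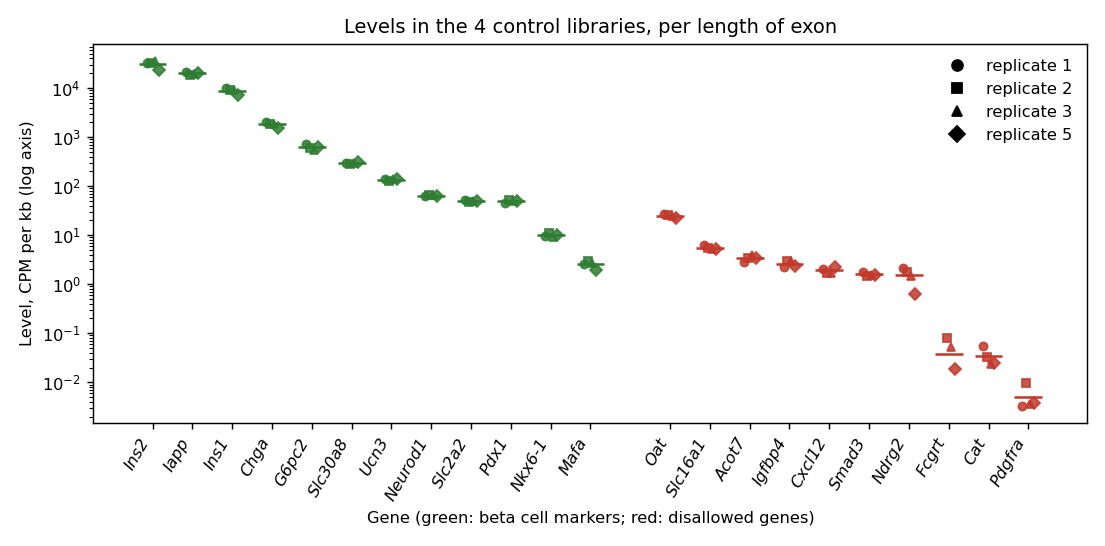
Level in CPM per kb of exon (log axis) of 12 beta cell markers (green) and the 10 disallowed genes (red) in the 4 control libraries; each symbol is a library and each line a mean, and the 0 of Fcgrt in replicate 1 is not drawn. Oat to Ndrg2 have means between 25.0 and 1.51 CPM per kb, those of Oat, Slc16a1, Acot7 and Igfbp4 above the lowest marker, Mafa, at 2.56, while Fcgrt, Cat and Pdgfra lie at or below 0.0378.

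The comparison of the groups asked which of the 10 genes responded to Zac1. A call is a Benjamini-Hochberg adjusted p under 0.05 in edgeR's quasi-likelihood test over 14331 genes that passed a filter on low counts. Fcgrt rose, no other of the 10 genes was called higher, and 0 were called lower, by edgeR and by limma-voom. Counts were too few for Pdgfra and Cat to enter the test, so 8 of the 10 genes were tested. Of all tested genes, 2.15% were called higher and 0.0349% lower. Fcgrt passed the filter through the Zac1 libraries, 4 of which reached its minimum level against 0 of the controls, so its count is not read against that background. At an unadjusted p under 0.05, 2 of the 8 were higher (Fcgrt and Smad3) and 0 lower, where 5.65% of all tested genes were higher and 1.93% lower, and DESeq2 called those 2. The tested genes of the group had a median log2 fold change of -0.01, as did all tested genes.

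Fcgrt encodes the receptor chain that, with B2m, carries immunoglobulin G and albumin out of endosomes and so spares them from breakdown. It had 0, 5, 3 and 1 counts in control replicates 1, 2, 3 and 5, and 47, 51, 40 and 35 counts in the Zac1 replicates. Every Zac1 library lay far above every control library. In CPM these were 0, 0.142, 0.0942 and 0.0327 against 1.12, 1.45, 0.964 and 0.828. The 0 of control replicate 1 allows up to 0.0865 CPM, from 3 counts of its total, which covers counting error only. The means were 0.0673 ± 0.0634 and 1.09 ± 0.267 CPM, a log2 fold change of 3.92 ± 0.45 (SE; edgeR adjusted p = 9.83e-05), with a 95% interval of 7.78-fold to 29.6-fold. With 9 control counts in all, the size of this fold is less certain than its direction. The call was kept without any 1 of the 8 libraries (log2 3.52 to 4.61). At 0.612 CPM per kb with Zac1, Fcgrt remained below the 7 expressed genes of the group. No exon of another gene overlapped its exons in the GENCODE annotation.

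The partner of the receptor, B2m, had 18.6 ± 3.15 CPM in the controls and 20.8 ± 3.42 CPM with Zac1, and its groups overlapped (log2 0.16 ± 0.14; edgeR adjusted p = 0.932). Fcgrt is known to be expressed in endothelial and myeloid cells. The 7 endothelial markers summed to 2.08 to 2.46 CPM in the control and 2.12 to 2.63 CPM in the Zac1 libraries. Most of it was Pecam1, at a mean of 1.31 against 1.39 CPM, and Plvap, at 0.54 against 0.74 CPM. Cdh5, VE-cadherin, had 0 counts in all 8. The 7 myeloid markers found in the table summed to 6.17 to 7.13 and 5.22 to 7.81 CPM, most of it Cd68. Only 2 genes of each list had enough counts to be tested. Of these, 0 were called by edgeR, DESeq2 or limma-voom, or had an unadjusted p under 0.05. Both sums overlapped between the groups. The 10 stromal markers summed to 1.90 to 2.75 and 2.44 to 3.35 CPM. Col1a1, a fibrillar collagen chain, was called among them (log2 1.62 ± 0.31, edgeR adjusted p = 0.00766). It reached the minimum level of the filter in 3 control and 4 Zac1 libraries, of 4 needed, and so passed through the Zac1 group. The other 2 tested stromal markers were not called, Col1a2 at log2 0.09 and Thy1 at -0.39. The rest were too low to be tested, and their counts, summed over a group, are given as control against Zac1. Cspg4 had 2 against 15, Rgs5 5 against 28, Pdgfrb 2 against 14 and Dcn 7 against 10. Col3a1 had 3 against 0 and Acta2 4 against 1. The groups of each of these genes overlapped, and Lum had 0 counts in all 8 libraries. The part of stromal cells in the result was not tested.

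The tested genes whose log2 CPM followed Fcgrt most closely over the 8 libraries were Vav2 (Pearson r = 0.990), Emilin3 (0.987) and Vangl2 (0.985). All 3 were themselves called higher with Zac1, Emilin3 from 0.107 to 0.938 CPM and Vav2 from 10.1 to 14.4 CPM. These correlations include the difference between the groups, so the choice favoured genes that rose with Zac1. They describe these 8 libraries and carry no test. The control mean of Emilin3 lay below the minimum level of the filter, 0.287 CPM.

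**Figure D2:**
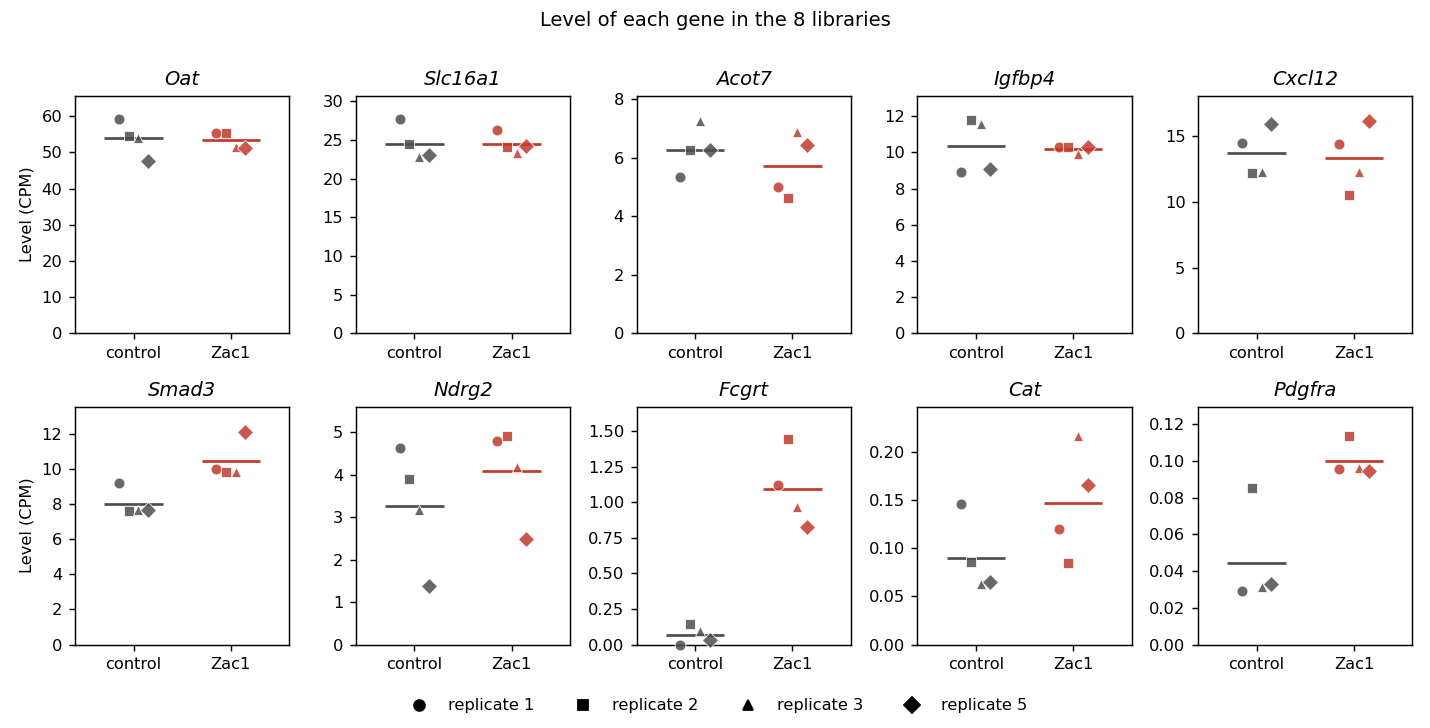
Level in CPM of each of the 10 genes in the 4 control (grey) and 4 Zac1 (red) libraries, ordered by level per kb; symbols are replicate numbers, lines are group means, and each axis starts at 0. Fcgrt, Smad3 and Pdgfra show groups that do not overlap, and Ndrg2 is lowest in replicate 5 of both groups, at 1.37 and 2.48 CPM. Every Zac1 library was higher for 4.39% of all tested genes, which leave out Pdgfra, with 6 against 16 counts.

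Smad3, which carries TGF-beta and activin signals from the receptors to the nucleus, was the next gene by p. It had 9.22, 7.59, 7.66 and 7.66 CPM in the control and 9.995, 9.85, 9.81 and 12.1 CPM in the Zac1 replicates 1, 2, 3 and 5. The lowest Zac1 library lay above the highest control library, which was true of 4.39% of all tested genes. The means were 8.03 ± 0.790 and 10.4 ± 1.11 CPM. The log2 fold change of 0.38 ± 0.10 did not pass (edgeR adjusted p = 0.0815), with a 95% interval of 1.12-fold to 1.51-fold before adjustment. Without control replicate 1, the highest of its group, it passed (edgeR adjusted p = 0.0347), and with the other 7 libraries left out in turn it did not (edgeR adjusted p up to 0.237). It also passed in DESeq2 (adjusted p = 0.0266), with library totals only (edgeR adjusted p = 0.0475) and without the filter (edgeR adjusted p = 0.0421). It did not pass in limma-voom (adjusted p = 0.108), without both libraries numbered 5 (edgeR adjusted p = 0.277) or at a mean of at least 50 counts (edgeR adjusted p = 0.175). With a block for the replicate number it passed (edgeR adjusted p = 0.0071), but number 2 did not match across the groups, so the pairing is uncertain, as described below.

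The other genes of the TGF-beta pathway gave 0 calls by edgeR and limma-voom among 16 tested of 20 listed, and 1 by DESeq2. Of all tested genes, edgeR called 2.15% higher and 0.0349% lower. At an unadjusted p under 0.05, 2 of the 16 were higher (Tgfb1 and Ski) and 0 lower, where 5.65% of all tested genes were higher and 1.93% lower. Of the partners of Smad3, Smad2 gave a log2 of -0.02 ± 0.05, Smad4 -0.07 ± 0.05, the inhibitory Smad7 -0.10 ± 0.08, the corepressor Skil -0.07 ± 0.06 and the receptor Tgfbr1 0.07 ± 0.06, none past the threshold (edgeR adjusted p = 0.846 to 0.977). Tgfb1, the ligand, was chosen after its values were seen. It had 4.65, 3.50, 3.55 and 3.27 CPM in the controls and 7.13, 6.33, 6.77 and 3.90 CPM with Zac1. Only Zac1 replicate 5 fell within the control range. Its log2 fold change of 0.68 ± 0.18 did not pass (edgeR adjusted p = 0.0856). Tgfb1 passed without Zac1 replicate 5 (0.000768), without control replicate 1 (0.0479), without both libraries numbered 5 (0.00139) and in DESeq2 (adjusted p = 0.0103). It also passed without the filter (edgeR adjusted p = 0.0424) and with the replicate block (0.000173). With each other library left out in turn it did not pass (edgeR adjusted p = 0.211 to 0.26). Nor did it pass in limma-voom (adjusted p = 0.201), with other scalings (edgeR adjusted p = 0.0833 and 0.0672) or at a mean of at least 50 counts (0.205). The receptor Tgfbr2 had too few counts to be tested, at 0, 0, 1 and 0 in the control and 4, 12, 5 and 3 in the Zac1 libraries. Its groups did not overlap, and without the filter it did not pass (edgeR adjusted p = 0.0538). Ltbp1, which anchors latent TGF-beta in the matrix, was also untested and was chosen after its values were seen. It had 3, 3, 4 and 4 counts in the control and 27, 12, 11 and 20 in the Zac1 libraries, and was called without the filter (log2 1.997; edgeR adjusted p = 0.0127).

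Among the metabolic genes, Slc16a1 had 27.7, 24.4, 22.8 and 23.1 CPM in the control and 26.2, 24.1, 23.4 and 24.2 CPM in the Zac1 libraries. The groups overlapped and the means were 24.5 ± 2.26 and 24.5 ± 1.24 CPM, with a 95% interval of 0.898-fold to 1.11-fold. Oat, which links ornithine to proline and glutamate, stood at 53.8 ± 4.69 against 53.4 ± 2.29 CPM, with an interval of 0.902-fold to 1.09-fold. Acot7 had 5.35 to 7.25 CPM in the controls and 4.62 to 6.87 CPM with Zac1 (log2 -0.13 ± 0.14; 0.746-fold to 1.12-fold). For none of these genes did the means differ by more than the spread of the libraries. Cat had 5, 3, 2 and 2 counts in the control and 5, 3, 9 and 7 counts in the Zac1 libraries. Its groups overlapped, and at this depth no difference was detectable.

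The direct partners of these enzymes and carriers were not called either. Slc16a1 needs a chaperone, Bsg or Emb, to reach the membrane, and both were abundant, Bsg at 468 ± 65.9 and Emb at 312 ± 10.3 CPM in the controls (log2 -0.10 ± 0.12 and -0.05 ± 0.04). Ldhb, the other common lactate dehydrogenase chain, stood at 9.86 ± 0.194 against 9.41 ± 0.582 CPM. Of the genes around Oat, Pycr1 gave a log2 of -0.10 ± 0.15, Aldh18a1 -0.09 ± 0.05 and the polyamine enzyme Odc1 0.06 ± 0.07, and 0 of 9 tested were called. Of the other acyl-CoA thioesterases, 5 of 12 were tested, at log2 -0.08 (Acot13) to 0.08 (Acot2), with Acot8 at 0.00, Acot9 at 0.04 and Acot11 at 0.04. Among the other antioxidant genes 16 of 19 were tested and 0 called: Sod1 gave -0.07 ± 0.06, Sod2 0.02 ± 0.06, Gpx1 -0.14 ± 0.13 and Prdx1 0.08 ± 0.10. Gpx3, a secreted glutathione peroxidase chosen after its values were seen, was among the untested. It had 4, 3, 2 and 0 counts in the control and 17, 6, 20 and 12 in the Zac1 libraries, groups that did not overlap, and was called without the filter (log2 2.27; edgeR adjusted p = 0.0295). Sod1 stood at 174 and Prdx1 at 136 CPM per kb in the controls, against 0.0344 for Cat. Among the tested genes of these 3 lists and of the list of 8 tested genes of lactate and pyruvate handling, 0 genes were called by edgeR, DESeq2 or limma-voom, and 0 had an unadjusted p under 0.05. Of all tested genes, edgeR called 2.15% higher and 0.0349% lower. At an unadjusted p under 0.05, 5.65% of them were higher and 1.93% lower.

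The secreted and receptor genes were led by Cxcl12, the ligand of Cxcr4. It had 14.5, 12.2, 12.2 and 15.9 CPM in the control and 14.4, 10.5, 12.3 and 16.1 CPM in the Zac1 libraries. The groups overlapped almost fully, and replicate 5 was the highest of both (log2 -0.04 ± 0.13; interval 0.802-fold to 1.18-fold). Its receptor Cxcr4 was low, at 0.723 ± 0.0950 against 0.736 ± 0.268 CPM, and its scavenging receptor Cxcr7 had too few counts to be tested. Dpp4, a protease that cleaves Cxcl12, was well expressed, at 72.3 ± 1.48 against 71.7 ± 1.28 CPM (log2 -0.01 ± 0.04). Igfbp4 had 8.89, 11.8, 11.6 and 9.06 CPM in the control and 10.3, 10.3, 9.905 and 10.3 CPM in the Zac1 libraries. All Zac1 libraries lay inside the control range (log2 -0.02 ± 0.10; interval 0.849-fold to 1.15-fold). Its relatives Igfbp2 (log2 -0.21 ± 0.33), Igfbp5 (-0.27 ± 0.18), Igfbp7 (-0.06 ± 0.24) and Igfbpl1 (0.02 ± 0.19) were not called. In the list of insulin-like growth factor genes 0 of 8 tested were called by edgeR, DESeq2 or limma-voom. Of all tested genes, edgeR called 2.15% higher and 0.0349% lower. At an unadjusted p under 0.05, 2 of the 8 were higher (Pappa and Igf1r) and 0 lower, where 5.65% of all tested genes were higher and 1.93% lower. Igfbp1, Igfbp3 and Igfbp6 had too few counts to be tested.

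Pdgfra had 1, 3, 1 and 1 counts in the control and 4 counts in each of the Zac1 libraries. The groups did not overlap in CPM, at 0.0293 to 0.0853 against 0.0946 to 0.114, but 6 counts against 16 leave the difference uncertain, and without the filter it did not pass (log2 1.08; edgeR adjusted p = 0.834). Its exons share 456 bases with those of Gm42802 on the opposite strand, and reads of such pairs are uncertain because the strand setting of the counting is not given in the sources used here. Among the genes of its pathway, Pdgfb, a ligand, was called. It had 2, 2, 0 and 3 counts in the control and 18, 13, 23 and 16 counts in the Zac1 libraries, and rose from 0.0534 ± 0.0404 to 0.433 ± 0.0853 CPM (log2 2.95 ± 0.49; edgeR adjusted p = 0.00246), a call kept without any 1 library. Like Fcgrt, it passed the filter through the Zac1 libraries, with 0 controls at its minimum level. The ligands Pdgfa (log2 0.15 ± 0.14) and Pdgfc (0.81 ± 0.26, edgeR adjusted p = 0.24) were not called, and Pdgfd and the receptor Pdgfrb were too low to be tested. Pdgfrb had 1, 0, 1 and 0 counts in the control and 3, 7, 1 and 3 in the Zac1 libraries. Its groups overlapped, and without the filter it did not pass (log2 2.31, edgeR adjusted p = 0.538).

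Ndrg2 stood out by its spread. It had 4.62, 3.89, 3.17 and 1.37 CPM in the control and 4.78, 4.91, 4.17 and 2.48 CPM in the Zac1 replicates 1, 2, 3 and 5. Replicate 5 was the lowest of both groups, the highest control library was 3.36 times the lowest, and the groups overlapped (log2 0.31 ± 0.33; edgeR adjusted p = 0.954). The 95% interval, 0.738-fold to 2.08-fold, was the widest among the tested genes of the group other than Fcgrt. With the replicate block Ndrg2 gave a log2 of 0.35 ± 0.13 and was not called (edgeR adjusted p = 0.139). The relatives Ndrg1 (log2 0.01 ± 0.10), Ndrg3 (0.03 ± 0.05) and Ndrg4 (0.07 ± 0.05), the last also on the list of other disallowed genes, were not called.

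Of the genes of lactate handling, Ldha, Slc16a3 and Pdk1 also differed widely between libraries of a group. Ldha had 428, 234, 193 and 92.5 CPM in the control and 357, 237, 210 and 94.6 CPM in the Zac1 replicates 1, 2, 3 and 5. Replicate 1 was the highest and replicate 5 the lowest in both groups, while the groups as such overlapped (log2 -0.08 ± 0.57, interval 0.362-fold to 2.48-fold). The model behind this interval has no term for the replicate number. With the replicate block, for which the pairing is uncertain, the log2 was -0.02 ± 0.05. At 125 CPM per kb, Ldha stood above 98.1% of genes in the controls. The lactate exporter Slc16a3 ran from 8.57 to 81.0 CPM in the controls and from 10.3 to 65.4 CPM with Zac1. Pdk1, a kinase that restrains pyruvate oxidation, chosen after its values were seen, ran from 48.8 to 183 and from 51.9 to 144 CPM. For both, replicate 1 was again the highest and replicate 5 the lowest of each group. With the replicate block Slc16a3 gave a log2 of -0.06 ± 0.09 and Pdk1 -0.03 ± 0.08. Slc16a1 itself varied far less, the highest control library being 1.22 times the lowest, as did its chaperone Bsg, at 1.41 times, and Ldhb, at 9.71 to 10.1 CPM in the controls.

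**Figure D3:**
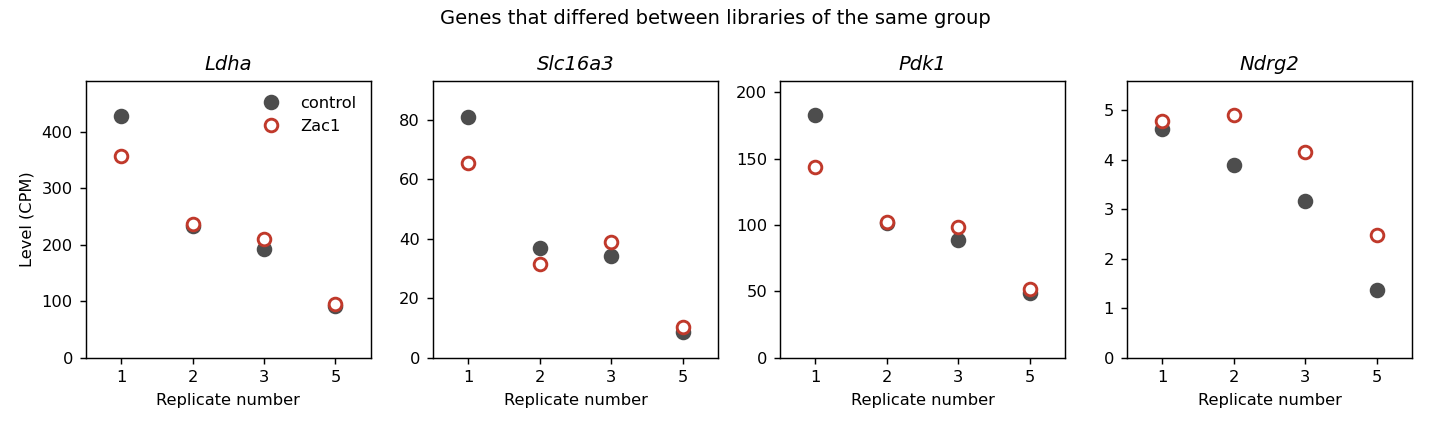
Level in CPM of Ldha, Slc16a3, Pdk1 and Ndrg2 by replicate number in the control (filled grey) and Zac1 (open red) libraries, with axes from 0. Replicate 5 is the lowest of each group for all 4 genes, at 92.5 and 94.6 CPM for Ldha against 428 and 357 in replicate 1.

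Other genes reported as disallowed in beta cells were examined as a list of 28, of which 20 were tested. Tgm2 and Pcolce were called, both higher, and 0 lower, by edgeR, DESeq2 and limma-voom, where 2.15% of all tested genes were called higher by edgeR. At an unadjusted p under 0.05, 3 were higher and 1 lower, where 5.65% of all tested genes were higher and 1.93% lower. Tgm2 reached the minimum level of the filter in 2 control and 4 Zac1 libraries, of 4 libraries needed, and so passed through the Zac1 group, and these counts are not read against the background. The list's median log2 fold change was 0.04, against -0.01 for all tested genes. Tgm2, a transglutaminase that cross-links proteins, had 5, 9, 11 and 10 counts in the control and 35, 29, 37 and 21 counts in the Zac1 libraries, and rose from 0.269 ± 0.0903 to 0.762 ± 0.179 CPM (log2 1.502 ± 0.32; edgeR adjusted p = 0.017). It lost the call without control replicate 1 or 2 or Zac1 replicate 2 or 3 (edgeR adjusted p = 0.0657, 0.0656, 0.0545 and 0.063). Its exons share 633 bases with those of Gm20412 and 178 with those of Rprd1b, both on the opposite strand, the latter at 52.3 and 53.2 CPM in the groups, so its few reads are uncertain. Pcolce, an enhancer of procollagen processing, rose from 0.774 ± 0.255 to 1.63 ± 0.272 CPM (log2 1.08 ± 0.24; edgeR adjusted p = 0.0289). It lost the call without control replicate 1, 2 or 5 (edgeR adjusted p = 0.0585, 0.0791 and 0.0543) and without Zac1 replicate 1, 2 or 3 (0.0691, 0.0914 and 0.0986).

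Mylk, the myosin light chain kinase, whose exons overlap the antisense E130310I04Rik (log2 0.46 ± 0.13; edgeR adjusted p = 0.0991), and Hk1, the high-affinity hexokinase (log2 -0.17 ± 0.06; edgeR adjusted p = 0.374), were the next by p and were not called. Yap1, the coactivator of the Hippo pathway, was too low to be tested and was chosen after its values were seen. It had 2, 2, 1 and 0 counts in the control and 16, 6, 7 and 32 counts in the Zac1 libraries, 0.0367 ± 0.0274 against 0.370 ± 0.277 CPM. The groups did not overlap, and without the filter it was called (log2 3.20; edgeR adjusted p = 0.00779). Its exons share 116 bases with Gm20416 on the opposite strand.

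**Figure D4:**
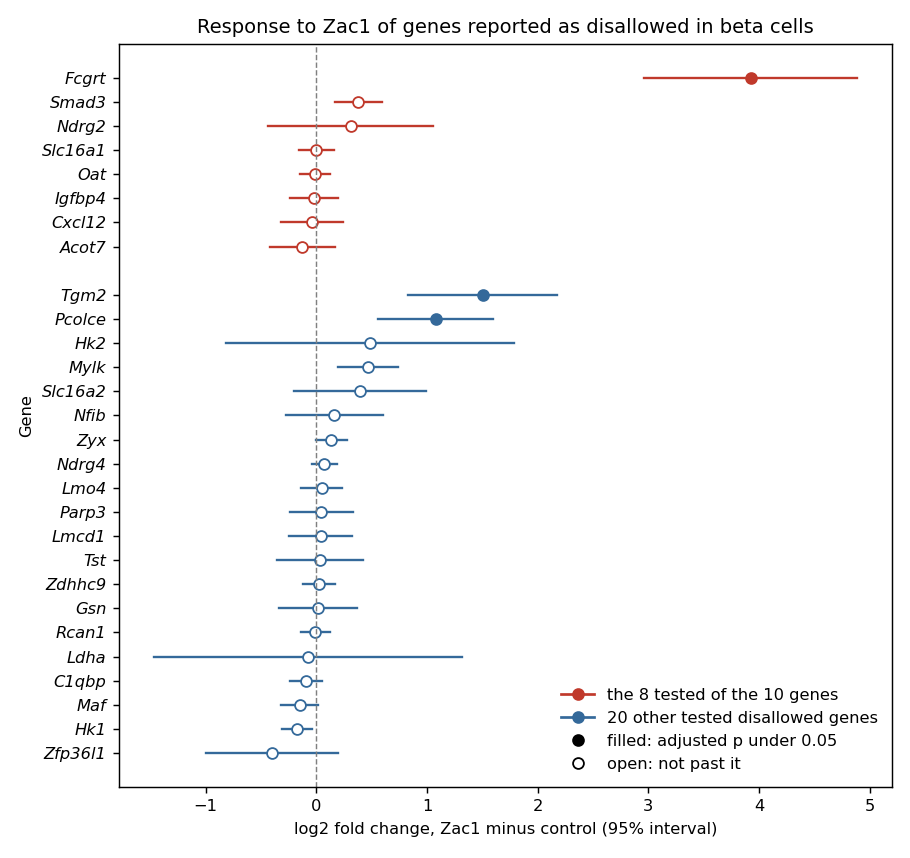
log2 fold change (Zac1 minus control) with its unadjusted 95% interval for the 8 tested of the 10 genes (red) and 20 other tested genes reported as disallowed (blue); filled points passed the adjusted p threshold of 0.05. Fcgrt (3.92), Tgm2 (1.502) and Pcolce (1.08) are filled, while the point of Ldha (-0.08) has a wide interval.

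Factors reported to keep disallowed genes low, such as the repressor Rest and the DNA methyltransferase Dnmt3a, formed a list of 8 tested genes. Of these 0 were called, with log2 fold changes from -0.05 to 0.32, by edgeR, DESeq2 or limma-voom, and 0 had an unadjusted p under 0.05. The lists of partners, relatives and regulators of the 10 genes held 79 tested genes, of which Pdgfb was called higher and 0 lower by edgeR, where 2.15% and 0.0349% of all tested genes were. At an unadjusted p under 0.05, 6 of the 79 were higher and 0 lower, where 5.65% and 1.93% of all tested genes were. Both counts include Pdgfb, which passed the filter through the Zac1 libraries, so they are not read against that background.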

How the data were processed

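The authors deposited 1 table of raw counts, holding the number of reads per gene in 8 libraries. The submitters' processing notes name TopHat2 2.1.1 with Bowtie2 2.2.8, HTSeq 0.6.1p1, bcl2fastq 2.17 and FastQC, and the build mm9, and per the labels' protocols the libraries were stranded mRNA libraries. For the counting, the annotation, strand setting and filters were not given in the sources used. Each of the 8 columns matched 1 sample title, and 0 entries lacked a gene name.

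The 14331 genes that passed filterByExpr, given the groups, were scaled by TMM and tested with edgeR 4.0.16 (R 4.3.3) by the robust quasi-likelihood F test on a model with group only. Each SE is the log2 fold change over the square root of F, and gives the 95% interval. DESeq2 1.42.0, limma-voom (limma 3.58.1), other scalings and filters, a replicate block and left-out libraries were alternatives, and the steps were tested on simulated counts. The series' design text calls the replicates biological. Counts of each replicate pair differed beyond sampling noise (chi-square per degree of freedom 7.24 to 24.1). Where they were not separate cultures, p-values measure only the spread between these samples. Exon lengths and overlaps come from GENCODE vM21 on GRCm38, by symbol, so lengths can differ from those of the counting.

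Genes named were the 10 genes, called genes and the 4 smallest p of the other disallowed genes, called genes and direct partners on the partner lists, Ldha, Hk1, Plagl1, and for Fcgrt the 3 most correlated genes. The 10 genes and all lists were chosen with earlier results of these data known. Of the marker lists, 1 gene is not reported here.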

Additional observations from a re-analysis of the deposited data

Results flagged for a closer look

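Libraries that lay far from the other 3 of their group, by the ratio of their gap to the group's range, were found for 10 of 59 named genes. About 1 in 20 groups is marked in this way by chance, and 117 groups were screened. Smad3 was marked in both groups: control replicate 1 stood at 9.22 CPM against 7.59 to 7.66 in the other controls, and Zac1 replicate 5 at 12.1 CPM against 9.81 to 9.995. Prdx1 stood at 460.5 CPM in Zac1 replicate 5, against 328 to 341 in the other Zac1 libraries. Igfbp4 stood at 9.905 CPM in Zac1 replicate 3, against 10.28 to 10.31 in the others.

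Control replicate 2 was set apart for Pdgfa, at 2.73 CPM against 3.50 to 3.66, for Pdgfc, at 1.02 CPM against 0.491 to 0.565, and for Pdgfra, at 0.0853 CPM against 0.0293 to 0.0327. Pdgfra was also marked in Zac1 replicate 2, at 0.114 CPM against 0.0946 to 0.0964. The remaining marks rest on a few counts. They were Tgfbr2 at 0.0314 CPM in control replicate 3 and Igfbp6 at 0.0585 CPM in control replicate 1, where the other controls had 0 counts, Igfbp3 at 0.157 CPM in control replicate 3 against 0.0284 to 0.0327, Igfbp1 at 0 in Zac1 replicate 1, and Igfbp6 at 0 in Zac1 replicate 2.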

How the results depend on the processing

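Fcgrt kept its call under every alternative that tested it, and the filter at a mean of 50 counts left it out, with 99 calls in all, 0 of the 10 genes, 0 of the other disallowed genes and 0 partners, because their low genes were not tested. Smad3 brought the count of the 10 genes to 2 with library totals only, without the filter, in DESeq2 and with the replicate block. Leaving out 1 library gave 1 to 2 of the 10 genes, 0 to 2 other disallowed genes and 1 to 3 partners. Partners numbered 4 without the filter (Gpx3, Pdgfb, Tgfb1 and Ltbp1), 2 in DESeq2 and 2 without both libraries numbered 5 (Pdgfb and Tgfb1). The 7 genes at 1 CPM per kb or more stayed 7 under each scaling, without each control library and in CPM with no division by length. Values near 0 changed sign: Slc16a1 gave a log2 of 0.001 with RLE size factors, in DESeq2 and in limma-voom, 0.018 with library totals only, 0.006 without the filter or with that at 50 counts, and 0.002 with the block, and Oat gave 0.007 with library totals only. With 1 library left out, Slc16a1 ran from -0.036 to 0.070, Oat from -0.058 to 0.041, Cxcl12 from -0.137 to 0.058 and Igfbp4 from -0.081 to 0.058. Scaling moved the median log2 of all genes between -0.009 and 0.009.

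Replicate numbers were shared between the groups, but the labels do not say that they pair. Deviations from the group means correlated at 0.291, 0.048, 0.143 and 0.292 for numbers 1, 2, 3 and 5. Control replicates 1, 3 and 5 correlated best with the Zac1 library of their own number, and control replicate 2 with Zac1 replicate 3. Because number 2 did not match, the pairing is uncertain, and the main model has no term for the number. With the replicate block the calls over all genes went from 313 to 628, of which 512 were higher and 116 lower (81.5% higher, against 98.4% without it), those of the 10 genes to 2 (Fcgrt and Smad3, edgeR adjusted p = 0.0071), those of other disallowed genes to 4 (Tgm2, Pcolce, Mylk at 0.0154 and, lower, Hk1 at 0.0165) and those of partners to 4 (Pdgfb, Tgfb1 at 0.000173, Ski at 0.0199 and Pdgfc at 0.0448). Depth limits Fcgrt, Pdgfra and Cat, where 3 counts correspond to 0.0707 to 0.0982 CPM in a library.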
